A study of Homo sapiens with 12 samples.

Results

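The 5 genes JCAD, MPP7, GRK3, TSPAN6 and ENPP4 were followed across 4 groups of LM3 cells, which derive from MDA-MB-231, a triple-negative breast cancer line of human origin, and metastasize to the lung. They are 5 of the 57730 genes in the count table, and they were chosen by their large falls in cells with a hairpin against ACSL5, set against cells with a control hairpin, both without palmitic acid. The table lists JCAD under its older symbol KIAA1462 and GRK3 under ADRBK2. All 5 passed the filter on low counts, which kept 14706 genes. PolyA RNA was sequenced from 3 libraries in each group: knockdown cells with palmitic acid (shACSL5_PA), control cells with palmitic acid (shControl_PA), knockdown cells without it (shACSL5) and control cells without it (shControl). The cells of all 4 groups carry a short hairpin RNA and were grown in the same serum-containing medium, and the series asks whether ACSL5 takes part in lung metastasis. The enzyme ACSL5 couples long-chain fatty acids such as palmitic acid to coenzyme A, the step before their further use. The hairpin sequence, the number of hairpins or clones, and the vehicle, dose and duration of palmitic acid are not stated by the sources used here. Any effect of the hairpin on other targets therefore cannot be told apart from loss of ACSL5, nor an effect of a vehicle from that of palmitic acid.

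The 5 proteins act at the cell surface or just beneath it. JCAD (junctional cadherin 5 associated) lies at cell-cell junctions of endothelial cells, and it binds LATS2, a kinase of the Hippo pathway that restrains the transcriptional co-activators YAP and TAZ. MPP7 is a membrane-associated guanylate kinase (MAGUK), a scaffold without catalytic activity that joins DLG1 and LIN7 proteins in the polarity complexes of epithelial junctions. GRK3 is a serine/threonine kinase that is drawn to the membrane by G protein beta-gamma subunits and phosphorylates active G protein-coupled receptors, which then bind arrestins. TSPAN6 is a tetraspanin, a member of a family of proteins that cross the membrane several times and gather partners into microdomains and into the vesicles that become exosomes. ENPP4 is an ectoenzyme on the outer face of the membrane that hydrolyses diadenosine polyphosphates, and it is known from the endothelium of brain vessels.

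On GRCh38, with the GENCODE 29 annotation, JCAD (ENSG00000165757) spans bases 30012800 to 30115494 of chromosome 10 on the minus strand, with 6 merged exons of 9515 bases. MPP7 (ENSG00000150054) lies on the same chromosome and strand at 28050993 to 28334486, with 23 merged exons of 6167 bases. GRK3 (ENSG00000100077) is on the plus strand of chromosome 22 at 25564849 to 25729294, with 23 merged exons of 9303 bases. TSPAN6 (ENSG00000000003) is on the minus strand of chromosome X at 100627109 to 100639991, with 10 merged exons of 4535 bases. ENPP4 (ENSG00000001561) is on the plus strand of chromosome 6 at 46129993 to 46146699, with 4 merged exons of 4651 bases. No exon of the 5 overlaps an annotated exon of another gene, and the share of transcript 50-mers that also occur in other genes was 0 for ENPP4, 0.231% for JCAD, 0.350% for MPP7, 0.414% for TSPAN6 and 1.02% for GRK3. Few of their reads could therefore be shared with other genes, although the strand setting of the counting is not given in the sources used here.

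The 250 bases before RefSeq transcription starts of the 5 genes (GRCh38.p14) are shown for the windows that lie outside annotated exons. The genes were selected for their falls, so their falling together says nothing about a shared promoter feature. JCAD, MPP7 and TSPAN6 had entries in the promoter table, GRK3 and ENPP4 had none. Each sequence reads 5′ to 3′ on the minus strand, and capitals mark matches, on either strand, to the AP-1 element TGANTCA, the TEAD element GGAATG (the site of the factors that carry YAP), the CCAAT box CCAAT and the GC box GGGCGG. The first JCAD window, chr10:30115495-30115744, ends at the outermost start of the gene.
JCAD upstream start: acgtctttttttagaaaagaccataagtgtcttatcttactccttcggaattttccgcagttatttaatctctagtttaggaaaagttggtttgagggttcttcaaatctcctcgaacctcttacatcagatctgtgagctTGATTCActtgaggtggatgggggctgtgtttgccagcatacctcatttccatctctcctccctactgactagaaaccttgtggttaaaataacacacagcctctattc
The second JCAD window, chr10:30059587-30059836, belongs to a start 55908 bases inside the gene.
JCAD internal start: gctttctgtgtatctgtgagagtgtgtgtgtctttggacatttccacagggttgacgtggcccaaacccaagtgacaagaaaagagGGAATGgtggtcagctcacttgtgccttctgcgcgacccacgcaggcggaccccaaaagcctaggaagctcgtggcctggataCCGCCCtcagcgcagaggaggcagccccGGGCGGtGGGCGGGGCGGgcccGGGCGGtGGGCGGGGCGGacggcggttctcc
The MPP7 window, chr10:28303065-28303314, lies 31422 bases inside the annotated gene.
MPP7 internal start: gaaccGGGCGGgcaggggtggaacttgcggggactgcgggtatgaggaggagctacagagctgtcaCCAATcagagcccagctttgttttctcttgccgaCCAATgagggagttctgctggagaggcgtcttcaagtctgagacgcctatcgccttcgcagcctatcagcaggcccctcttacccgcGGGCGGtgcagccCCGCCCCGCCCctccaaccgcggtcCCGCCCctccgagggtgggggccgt
The TSPAN6 window, chrX:100637105-100637354, lies 2887 bases inside the annotated gene, and whether LM3 cells use this start is not known from the counts.
TSPAN6 internal start: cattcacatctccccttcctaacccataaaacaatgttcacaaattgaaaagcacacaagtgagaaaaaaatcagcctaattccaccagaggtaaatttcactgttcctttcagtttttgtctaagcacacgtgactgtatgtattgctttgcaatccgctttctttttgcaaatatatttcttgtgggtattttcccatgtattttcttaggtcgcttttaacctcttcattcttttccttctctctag

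The 4 windows shown had no match in common. The upstream JCAD window held 1 AP-1 match, which 6.57% of 35116 RefSeq windows of this length also hold. In the internal JCAD window stood 1 TEAD match (11.9% of all windows) and 7 GC box matches (42.6% of windows hold at least 1), some of which overlap each other. The MPP7 window shown had 2 CCAAT matches (32% of windows) and 5 GC box matches, and the TSPAN6 window shown had none of the 4 elements. A second MPP7 window, left out because 6% of its bases lie in annotated exons, held 1 TEAD and 1 CCAAT match. A second TSPAN6 window, before a start 3185 bases inside the gene and left out because it is 100% exonic, held 1 GC box match. Neither TSPAN6 window can be taken as the promoter in use, because the counts do not show which start is used. With that exonic window, JCAD, MPP7 and TSPAN6 each had a GC box match, an element that 42.6% of single windows hold. No share per gene was computed, and GRK3 and ENPP4 had no window. Base composition also differed among the windows shown, with a GC content of 40.8% and 64.4% in the JCAD windows, 66% in MPP7 and 36.4% in TSPAN6, beside a median of 58% over all windows. These matches are descriptions of letters and no evidence of binding.

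Library totals ran from 18875565 to 20623983 counts in shACSL5_PA, 18014888 to 18614091 in shControl_PA, 16788694 to 21814751 in shACSL5 and 17119570 to 18680316 in shControl. Levels are given as CPM, counts scaled to library size with TMM factors, with the SD over 3 libraries. Nothing in the labels says that the 3 libraries of a group came from separate cultures, and p-values then reflect only the scatter of these libraries, which may be technical. The targeted gene ACSL5 averaged 15.3 ± 2.19 CPM in shACSL5_PA and 191 ± 2.73 CPM in shControl_PA, which left 8.01%, and 11.2 ± 1.17 CPM in shACSL5 and 143 ± 1.69 CPM in shControl, which left 7.82%. Defining genes of MDA-MB-231 (VIM, CD44, AXL, CAV1, EGFR, ANXA1 and FN1) were all present and summed to 5290 to 5520 CPM in shACSL5_PA, 6480 to 6606 in shControl_PA, 5670 to 5733 in shACSL5 and 7055 to 7221 in shControl. JCAD and ENPP4 are best known from endothelium, so endothelial markers were summed too: they gave 16.6 to 20.5 CPM in shACSL5_PA, 23.3 to 24.3 in shControl_PA, 17.2 to 18.7 in shACSL5 and 26.2 to 28.98 in shControl, most of it from ROBO4, with EMCN at 0 in every library. Of 8 listed markers 7 were found, PECAM1 not among them. CDH5 summed to 14 counts in shACSL5_PA, 29 in shControl_PA, 6 in shACSL5 and 63 in shControl. KDR had 69, 85, 81 and 150 counts in the same order. Luminal breast markers summed to 37.8 to 41.4 CPM in shACSL5_PA, 70.7 to 76.1 in shControl_PA, 45.7 to 53.0 in shACSL5 and 85.3 to 92.7 in shControl. Of the immune markers CD3E was at 0 in all libraries. PTPRC, the pan-leukocyte gene, summed to 10 counts in shACSL5_PA, 0 in shControl_PA, 13 in shACSL5 and 0 in shControl, and CD14 to 11, 3, 29 and 11 counts in the same order, both more in knockdown libraries. LYZ had 1, 1, 3 and 4 counts in that order. Of 4 lung epithelial markers SFTPC and SCGB1A1 were at 0, and the sum of 25.7 to 44.8 CPM over all libraries came almost wholly from NKX2-1. The sums for MDA-MB-231, luminal, endothelial and lung epithelial genes were lower in knockdown than in control libraries, as the 5 genes were, and their part in the results was not tested. Single markers differed from their sums, and those named here were chosen after their values were seen. VIM made up the largest part of the MDA-MB-231 sum, while under palmitate AXL (0.23, edgeR adjusted p = 2.47e-06) and EGFR (0.15, edgeR adjusted p = 1.26e-04) were called higher in knockdown cells on the log2 scale. Of the luminal genes AGR2 stood at -2.03 and KRT19 at -0.80, and the luminal factors GATA3 and FOXA1 were not called.

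JCAD, the junction protein that binds LATS2, had 3.38, 3.89 and 3.01 CPM in the shACSL5_PA libraries, against 14.1, 14.4 and 15.4 CPM in shControl_PA. Without palmitate the libraries had 3.57, 3.55 and 3.06 CPM in shACSL5, against 23.5, 23.7 and 22.1 CPM in shControl. The 6 knockdown libraries thus lay at a single low level with and without palmitate, while the 6 control libraries split by treatment, with no overlap between any control library and any knockdown library. Of all tested genes, 34.5% had every shACSL5 library below every shControl library, the comparison of the selection. For shACSL5_PA below shControl_PA the share was 29.5%. Raw counts were 56 to 77 per library in shACSL5_PA and 58 to 78 in shACSL5, so counting error alone allows a coefficient of variation of about 12.2% in shACSL5_PA, near the 12.9% observed.

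MPP7, the scaffold of DLG1 and LIN7, had 3.63, 2.98 and 2.58 CPM in shACSL5_PA, against 13.4, 14.2 and 10.6 CPM in shControl_PA. Its untreated libraries had 2.57, 3.198 and 2.43 CPM in shACSL5, against 16.01, 12.5 and 14.3 CPM in shControl. Knockdown and control libraries were again fully apart, whereas treated and untreated libraries overlapped in both cell types. GRK3, the receptor kinase and the least abundant of the 5, had 2.11, 1.82 and 2.20 CPM in shACSL5_PA, against 7.32, 8.88 and 8.50 CPM in shControl_PA. Without palmitate its libraries had 1.79, 2.13 and 2.27 CPM in shACSL5, against 8.09, 9.44 and 8.95 CPM in shControl. For GRK3 too the separation followed the hairpin alone, on 36 to 43 counts per knockdown library.

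TSPAN6, the tetraspanin, had 12.5, 12.2 and 13.5 CPM in shACSL5_PA, against 37.9, 36.5 and 36.4 CPM in shControl_PA. In untreated cells it had 6.50, 6.81 and 6.96 CPM in shACSL5, against 35.7, 38.8 and 36.0 CPM in shControl. Its control libraries formed a single range, while treated knockdown libraries stood above all untreated ones and still below every control. ENPP4, the ectoenzyme, had 22.5, 27.5 and 26.2 CPM in shACSL5_PA, against 40.4, 38.3 and 35.7 CPM in shControl_PA. Its untreated libraries had 17.4, 17.7 and 15.1 CPM in shACSL5, against 42.7, 39.9 and 38.1 CPM in shControl. ENPP4 showed the same 3 levels as TSPAN6: treated and untreated controls overlapping at the top, treated knockdown in between and untreated knockdown lowest.

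**Figure D1:**
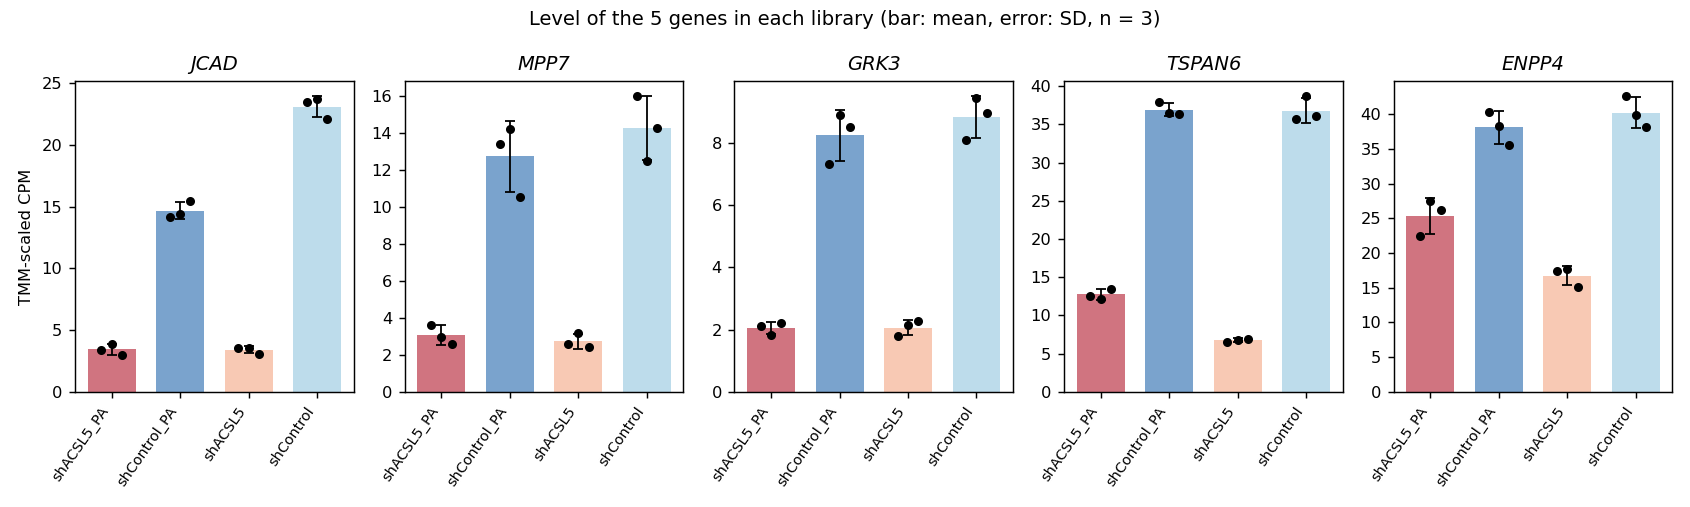
TMM-scaled CPM (y axis, from 0, a separate scale per gene) of the 5 genes in the 4 groups, with 1 point per library, bars at the mean and error bars of 1 SD (n = 3). Knockdown libraries lie below all control libraries for every gene, and shACSL5_PA stands above shACSL5 for TSPAN6 and ENPP4, whose means were 12.7 against 6.76 and 25.4 against 16.8 CPM. Of all tested genes, 34.5% had shACSL5 wholly below shControl, the comparison of the selection, and 29.5% had shACSL5_PA wholly below shControl_PA.

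In the order of the 4 group means, the gap between the lower control group and the higher knockdown group was free of overlap for all 5 genes. The untreated libraries in this gap took part in the selection. Knockdown libraries lay wholly below controls in 34.5% of tested genes without palmitate and in 29.5% with it. No share was computed for both treatments at once. For JCAD the order was shControl, shControl_PA, shACSL5_PA and shACSL5, with overlap only between the last 2. MPP7 had the same order, with overlap within each cell type, and GRK3 differed from it only in that shACSL5 and shACSL5_PA, which overlapped, changed places. TSPAN6 ran from shControl_PA and shControl, which overlapped, through shACSL5_PA to shACSL5, and ENPP4 from shControl and shControl_PA, which overlapped, through shACSL5_PA to shACSL5. Per kilobase of merged exon, which allows genes to be compared, the untreated control level was 8.65 ± 0.490 CPM per kb for ENPP4, 8.12 ± 0.372 for TSPAN6, 2.43 ± 0.0913 for JCAD, 2.32 ± 0.283 for MPP7 and 0.949 ± 0.0735 for GRK3 (SD, n = 3). The libraries of ENPP4 and TSPAN6 did not differ beyond their spread in that order, nor did those of JCAD and MPP7. In treated knockdown cells the same scale gave 5.46 ± 0.558 CPM per kb for ENPP4, 2.81 ± 0.149 for TSPAN6, 0.497 ± 0.0855 for MPP7, 0.360 ± 0.0466 for JCAD and 0.22 ± 0.0215 for GRK3. None of the 5 transcripts was at 0 in any library, so they were reduced and not lost.

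The knockdown without palmitate is the comparison on which the genes were selected, and its values are given as a description. JCAD averaged 3.40 ± 0.291 CPM in shACSL5 and 23.1 ± 0.869 CPM in shControl, a log2 change of -2.76 (SE 0.12) that left 14.7% of the transcript. TSPAN6 averaged 6.76 ± 0.233 CPM in shACSL5 and 36.8 ± 1.69 CPM in shControl, a change of -2.45 (SE 0.08). MPP7 stood at 2.73 ± 0.412 CPM in shACSL5 and 14.3 ± 1.75 CPM in shControl (-2.39, SE 0.16), and GRK3 at 2.06 ± 0.248 CPM in shACSL5 and 8.83 ± 0.684 CPM in shControl (-2.10, SE 0.16). ENPP4 had the smallest change of the 5, -1.26 (SE 0.08), with 16.8 ± 1.42 CPM in shACSL5 and 40.2 ± 2.28 CPM in shControl, which left 41.7%. Falls were common in this comparison: 32.6% of the 14706 tested genes were called lower and 29.7% higher at an adjusted p under 0.05 (edgeR quasi-likelihood test, Benjamini-Hochberg), and in 34.5% all shACSL5 libraries lay below all shControl libraries. By log2 change JCAD ranked 59, TSPAN6 93, MPP7 98, GRK3 152 and ENPP4 641 from the lowest, so ENPP4 was not among the extreme genes. In bulk RNA, fewer cells that express a gene and less RNA per cell cannot be told apart.

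Under palmitate, in libraries outside the comparison that selected the genes, all 5 genes were again lower in knockdown cells. The genes were chosen with earlier results of these data known, so these libraries are not fully independent of the choice. All 5 genes were called lower by edgeR's quasi-likelihood test, where 26.1% of tested genes were called lower and 24.4% higher. The median log2 change of the 5 was -2.01, beside -0.00 over all genes tested. JCAD averaged 3.43 ± 0.443 CPM in shACSL5_PA and 14.7 ± 0.677 CPM in shControl_PA (SD, n = 3), and its log2 change of -2.09 (SE 0.12) had an edgeR adjusted p of 1.82e-12. MPP7 averaged 3.06 ± 0.527 CPM in shACSL5_PA and 12.8 ± 1.92 CPM in shControl_PA, with a change of -2.05 (SE 0.16, edgeR adjusted p = 3.29e-10). GRK3 averaged 2.04 ± 0.1996 CPM in shACSL5_PA and 8.24 ± 0.813 CPM in shControl_PA, with a change of -2.01 (SE 0.16, edgeR adjusted p = 8.55e-10). These 3 genes kept 23.4%, 24.0% and 24.8% of the control level. TSPAN6 averaged 12.7 ± 0.676 CPM in shACSL5_PA and 36.9 ± 0.860 CPM in shControl_PA, a change of -1.54 (SE 0.07, edgeR adjusted p = 1.08e-13) that left 34.5%. ENPP4 averaged 25.4 ± 2.60 CPM in shACSL5_PA and 38.1 ± 2.38 CPM in shControl_PA, a change of -0.59 (SE 0.08, edgeR adjusted p = 1.84e-06) that left 66.6%. All 3 treated knockdown libraries lay below all 3 treated controls for each of the 5, as they did for 29.5% of the genes tested. For a single gene the 2-sided exact permutation test over libraries had p = 0.1, the smallest possible with 3 against 3. JCAD, MPP7 and GRK3 ranked 57, 59 and 63 from the lowest log2 change, TSPAN6 159 and ENPP4 1465.

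**Figure D2:**
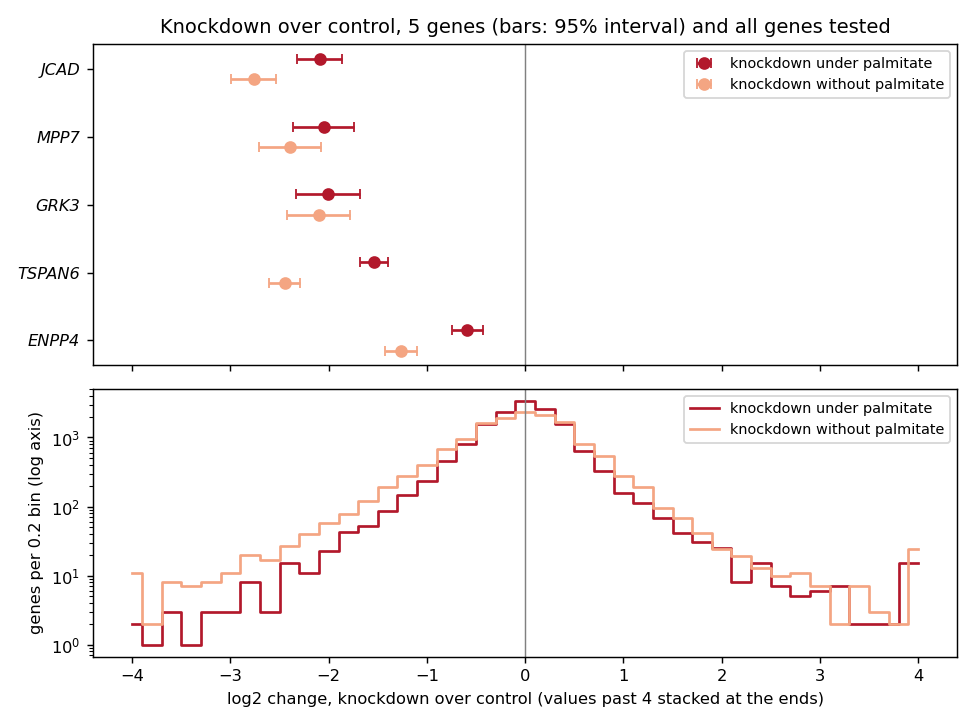
Top, log2 change of knockdown over control (x axis) for the 5 genes with palmitate (dark) and without it (light), with 95% intervals as bars. The light bars take no account of the selection. Bottom, the number of tested genes per 0.2 of log2 change (log y axis, values past 4 gathered at the ends); the 5 genes lie on the low side of both distributions, ENPP4 nearest to 0 with -0.59 and -1.26.

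Palmitate was tested first as its average over knockdown and control cells, an effect that the selecting comparison leaves free. TSPAN6 and ENPP4 were called higher and JCAD lower, where 18.4% of tested genes were called higher and 14.7% lower. TSPAN6 changed by 0.46 (SE 0.06, edgeR adjusted p = 1.28e-06), ENPP4 by 0.26 (SE 0.06, edgeR adjusted p = 0.00132) and JCAD by -0.32 (SE 0.09, edgeR adjusted p = 0.00597) on the log2 scale. MPP7 had a change of 0.01 (SE 0.11, edgeR adjusted p = 0.970) and GRK3 of -0.05 (SE 0.12, edgeR adjusted p = 0.771). With library sizes alone, without TMM factors, MPP7 stood at -0.03. Among all called genes the share that was higher was 55.6% with TMM factors and 40% with library sizes alone.

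Within control cells the 5 genes are described without a test, because the comparison shares its 3 shControl libraries with the one that selected the genes, and choosing genes that are high in those libraries favours a lower value under palmitate. JCAD had 14.7 ± 0.677 CPM in shControl_PA and 23.1 ± 0.869 CPM in shControl, 63.5% of the untreated level and a log2 change of -0.66 (SE 0.10). All 3 treated control libraries lay below all 3 untreated ones for JCAD, as for 20.8% of tested genes. MPP7 had a change of -0.16 (95% interval -0.43 to 0.10), GRK3 of -0.10 (-0.38 to 0.18), TSPAN6 of 0.00 (-0.13 to 0.14) and ENPP4 of -0.08 (-0.23 to 0.07). These intervals describe the scatter of the libraries and take no account of the selection. The sign of the TSPAN6 value depended on scaling, at -0.04 with library sizes alone. Over all tested genes 13.5% were called lower and 15.1% higher in this comparison, and the share of called genes that was higher was 52.8% with TMM factors and 35.9% with library sizes alone.

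Within knockdown cells there is likewise no test for the 5 genes, because the 3 shACSL5 libraries took part in the selection, and choosing genes that are low in them favours a higher value under palmitate. TSPAN6 averaged 12.7 ± 0.676 CPM in shACSL5_PA and 6.76 ± 0.233 CPM in shACSL5, a log2 change of 0.91 (SE 0.09). ENPP4 averaged 25.4 ± 2.60 CPM in shACSL5_PA and 16.8 ± 1.42 CPM in shACSL5, a log2 change of 0.60 (SE 0.09). For both genes all treated libraries lay above all untreated ones, as for 18.8% of tested genes, and both stayed below the control level. JCAD had a change of 0.02 (95% interval -0.26 to 0.29), MPP7 of 0.18 (-0.19 to 0.55) and GRK3 of -0.01 (-0.38 to 0.37). These intervals too take no account of the selection, and they admit moderate changes in either direction. With library sizes alone the JCAD value turned to -0.00587. Over all tested genes 12.1% were called higher and 9.78% lower, and the share of called genes that was higher was 55.3% with TMM factors and 46.1% with library sizes alone.

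The palmitate response of knockdown minus control cells contains the selecting comparison, and for the 5 genes it is given without a test. It was 0.91 (SE 0.11) for TSPAN6, 0.67 (SE 0.12) for ENPP4, 0.67 (SE 0.17) for JCAD, 0.34 (SE 0.23) for MPP7 and 0.09 (SE 0.24) for GRK3 on the log2 scale. For JCAD the change was 0.02 in knockdown cells and -0.66 in control cells, for TSPAN6 it was 0.91 and 0.00, and for ENPP4 0.60 and -0.08.

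**Figure D3:**
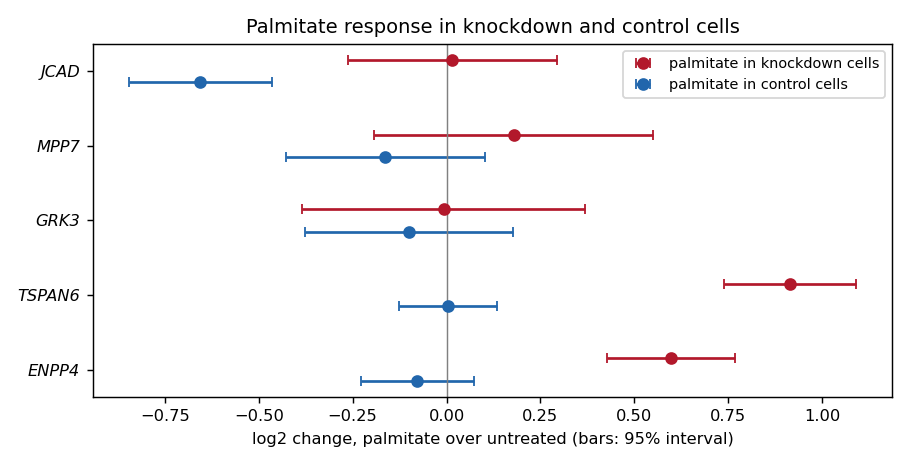
Log2 change of palmitate over untreated (x axis) for the 5 genes in knockdown cells (red) and control cells (blue), with 95% intervals as bars. The bars take no account of the selection. TSPAN6 and ENPP4 lie right of 0 in knockdown cells at 0.91 and 0.60, and JCAD lies left of 0 in control cells at -0.66.

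Across the 12 libraries the log2 CPM of the 5 genes ran in parallel, with Pearson correlations from 0.875 for GRK3 and ENPP4 to 0.976 for MPP7 and GRK3 and 0.977 for JCAD and MPP7, and 0.974 for TSPAN6 and ENPP4. The points share the hairpin contrast that selected the genes, so these are descriptions with no test. Of 10938 genes with a mean of at least 5 CPM, those most like JCAD were TGFBR2 (r = 0.998), the type II receptor of TGF-beta, CAPRIN2 (0.997) and PHKB (0.997), a subunit of phosphorylase kinase. TGFBR2 had mean levels of 203.8 CPM in shACSL5_PA, 307.5 in shControl_PA, 200.8 in shACSL5 and 340 in shControl, the order of JCAD on a smaller fold. MPP7 was most like UEVLD (0.993), ATF2 (0.992), a transcription factor, and UBE2W (0.992), a ubiquitin-conjugating enzyme. GRK3 was most like SKP2 (0.990), a substrate receptor of an SCF ubiquitin ligase, ATP9A (0.989), a phospholipid-flippase relative, and LAMA5 (0.988), a laminin chain. TSPAN6 was most like YWHAZ (0.997), a 14-3-3 protein, EFHD2 (0.996) and RNF14 (0.995). ENPP4 was most like VAMP7 (0.989), a vesicle fusion protein, NCKAP1 (0.988), a subunit of the WAVE actin regulator, and ACSL3 (0.987), a relative of ACSL5. By Spearman's rho only 1 of these 15 names, ATP9A, was named again.

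Relatives and partners of the 5 proteins were read in the same model, with the 5 genes themselves left out of each list. Their counts are set beside 26.1% of all tested genes called lower and 24.4% called higher under palmitate, and 32.6% lower and 29.7% higher without it, and nothing particular to a list was tested. Among 18 Hippo pathway genes, all tested, 8 were called lower and 2 higher in shACSL5_PA against shControl_PA (26.1% and 24.4% of all genes), with a median log2 change of -0.07. LATS2, the kinase that JCAD binds, averaged 36.3 ± 1.30 CPM in shACSL5_PA and 54.6 ± 1.93 CPM in shControl_PA (-0.59, SE 0.06, edgeR adjusted p = 1.49e-08). Its paralog LATS1 averaged 48.3 ± 3.71 CPM in shACSL5_PA and 49.99 ± 2.48 CPM in shControl_PA and was not called (-0.05, SE 0.06). WWTR1, which encodes TAZ, changed by -0.42 (SE 0.04), while WWC1, an upstream activator of LATS kinases also called KIBRA, rose by 1.42 (SE 0.13) and AMOTL2, an angiomotin that binds YAP, by 0.47 (SE 0.04). Without palmitate 11 of the 18 were called lower and 3 higher (32.6% and 29.7% of all genes).

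Of 31 MAGUK and polarity genes 26 were tested under palmitate, and 15 were called lower and 4 higher (26.1% and 24.4% of all genes), with a median of -0.15. The partners of MPP7 had smaller changes than the -2.05 of MPP7 itself. DLG1 averaged 51.2 ± 4.25 CPM in shACSL5_PA and 61.2 ± 1.70 CPM in shControl_PA (-0.26, SE 0.07, edgeR adjusted p = 0.00237), and LIN7C changed by -0.29 (SE 0.06). LIN7A was below the filter. LIN7B, with 2.38 ± 0.313 CPM in shACSL5_PA and 1.47 ± 0.434 CPM in shControl_PA, was called higher (0.69, SE 0.28, edgeR adjusted p = 0.0403), but its edgeR adjusted p was 0.114 and 0.0967 without shACSL5_PA replicate 1 or 3, and 0.154 and 0.115 without shControl_PA replicate 1 or 3. Its call was also lost with DESeq2, without the low-count filter and with the replicate number as a block. Among paralogs PALS1, the scaffold of the Crumbs complex, changed by -0.27 (SE 0.06) and PALS2 by -0.33 (SE 0.07), whereas MPP4 rose by 0.76 (SE 0.08). MPP2, outside the naming rule and added after its values were seen, changed by -0.68 (SE 0.09, edgeR adjusted p = 1.26e-06). MPP3 was not called. MPP1 stood at 0.24 (SE 0.08, edgeR adjusted p = 0.0124), and at 0.20 with an edgeR adjusted p of 0.0695 without shACSL5_PA replicate 3 and 0.0740 without shControl_PA replicate 1. The polarity proteins LLGL2 (-1.25, SE 0.12) and PATJ (-0.90, SE 0.21) had the largest falls of the list among genes with a mean of at least 1 CPM. Without palmitate 16 of the 26 were called lower and 5 higher (32.6% and 29.7% of all genes).

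Among 33 membrane proteins of adherens and tight junctions 23 were tested, and 12 were called lower and 3 higher under palmitate (26.1% and 24.4% of all genes), with a median of -0.37. CLDN4, a tight junction claudin, averaged 13.7 ± 0.624 CPM in shACSL5_PA and 36.7 ± 0.905 CPM in shControl_PA (-1.42, SE 0.08, edgeR adjusted p = 8.68e-13). CDH11, a mesenchymal cadherin, averaged 67.5 ± 4.15 CPM in shACSL5_PA and 143.6 ± 2.31 CPM in shControl_PA (-1.09, SE 0.05, edgeR adjusted p = 2.17e-14). CGNL1, which encodes paracingulin, changed by -1.88 (SE 0.46) at a level of 0.336 ± 0.155 CPM in shACSL5_PA and 1.26 ± 0.368 CPM in shControl_PA. CLDN1, another claudin, went the other way and rose by 1.13 (SE 0.19). E-cadherin (CDH1) and N-cadherin (CDH2) were below the filter. Without palmitate 18 of the 23 were called lower and 3 higher (32.6% and 29.7% of all genes).

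Of 14 genes for receptor kinases and arrestins 10 were tested, and 4 were called higher and 4 lower under palmitate (24.4% and 26.1% of all genes), with a median of -0.00. GRK2, the closest paralog of GRK3, rose by 0.52 (SE 0.05, edgeR adjusted p = 8.96e-09), with 108.7 ± 4.74 CPM in shACSL5_PA and 75.8 ± 3.78 CPM in shControl_PA. GRK5 rose by 0.38 (SE 0.08) and GRK6 fell by 0.34 (SE 0.05) on the log2 scale. Of the arrestins, which bind phosphorylated receptors, ARRB2 rose by 0.27 (SE 0.07) and ARRB1 stood at -0.13 (SE 0.06, edgeR adjusted p = 0.0740), which without shACSL5_PA replicate 1 became 0.0333. Arrestin-domain proteins split, with ARRDC4 at 1.44 (SE 0.19), ARRDC3 at -0.57 (SE 0.06) and ARRDC1 at -0.41 (SE 0.10). Without palmitate 3 were called higher and 4 lower (29.7% and 32.6% of all genes).

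Of 35 genes for tetraspanins and the proteins that sort with them 25 were tested, and 13 were called lower and 1 higher under palmitate (26.1% and 24.4% of all genes), with a median of -0.21. CD82, a tetraspanin known as a suppressor of metastasis, averaged 6.57 ± 0.529 CPM in shACSL5_PA and 17.5 ± 0.686 CPM in shControl_PA (-1.42, SE 0.10, edgeR adjusted p = 5.7e-11). TSPAN7, the closest relative of TSPAN6, changed by -1.97 (SE 0.38, edgeR adjusted p = 1.59e-04) at 0.455 ± 0.161 CPM in shACSL5_PA and 1.81 ± 0.626 CPM in shControl_PA, and TSPAN33 by -0.93 (SE 0.19). The abundant exosome tetraspanins changed less, with CD151 at -0.48 (SE 0.04), CD9 at -0.36 (SE 0.04), CD63 at -0.21 (SE 0.03) and CD81 not called at 0.06 (SE 0.04). SDCBP, which encodes syntenin, an adaptor of exosome formation, changed by -0.15 (SE 0.03), and ADAM10, a protease carried by tetraspanins, by -0.80 (SE 0.04). Without palmitate 16 of the 25 were called lower and 3 higher (32.6% and 29.7% of all genes). With palmitate against without it, 7 of the 25 were called higher and 1 lower in knockdown cells (12.1% and 9.78% of all genes), and 2 higher and 7 lower in control cells (15.1% and 13.5%), and the difference between these counts was not tested.

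Of 19 ecto-nucleotidase and related genes 13 were tested, and 5 were called lower and none higher under palmitate (26.1% and 24.4% of all genes), with a median of -0.01. ENPP1, a paralog of ENPP4 that makes pyrophosphate from extracellular ATP, averaged 58.3 ± 2.06 CPM in shACSL5_PA and 191.4 ± 1.64 CPM in shControl_PA (-1.71, SE 0.04, edgeR adjusted p = 1.48e-18). ENPP4 itself had a change of -0.59 in the same comparison. NT5E (CD73), the ectoenzyme that releases adenosine, had 917 ± 9.81 CPM in shACSL5_PA and 1107 ± 8.98 CPM in shControl_PA (-0.27, SE 0.02). ENTPD4 and ENTPD5 changed by -0.42 (SE 0.05) and -0.40 (SE 0.09), and the fifth called gene, ENTPD3, had a mean below 1 CPM. ENPP2 (autotaxin), at 0.509 ± 0.0898 CPM in shACSL5_PA and 0.515 ± 0.355 CPM in shControl_PA, and ENPP5, at 0.103 ± 0.0555 CPM in shACSL5_PA and 0.219 ± 0.163 CPM in shControl_PA, were not called in this comparison. Without palmitate 7 of the 13 were called lower and 2 higher (32.6% and 29.7% of all genes). The palmitate response differed between knockdown and control cells in 14.5% of all tested genes, and the named relatives and partners among them are given in the closing section.

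**Figure D4:**
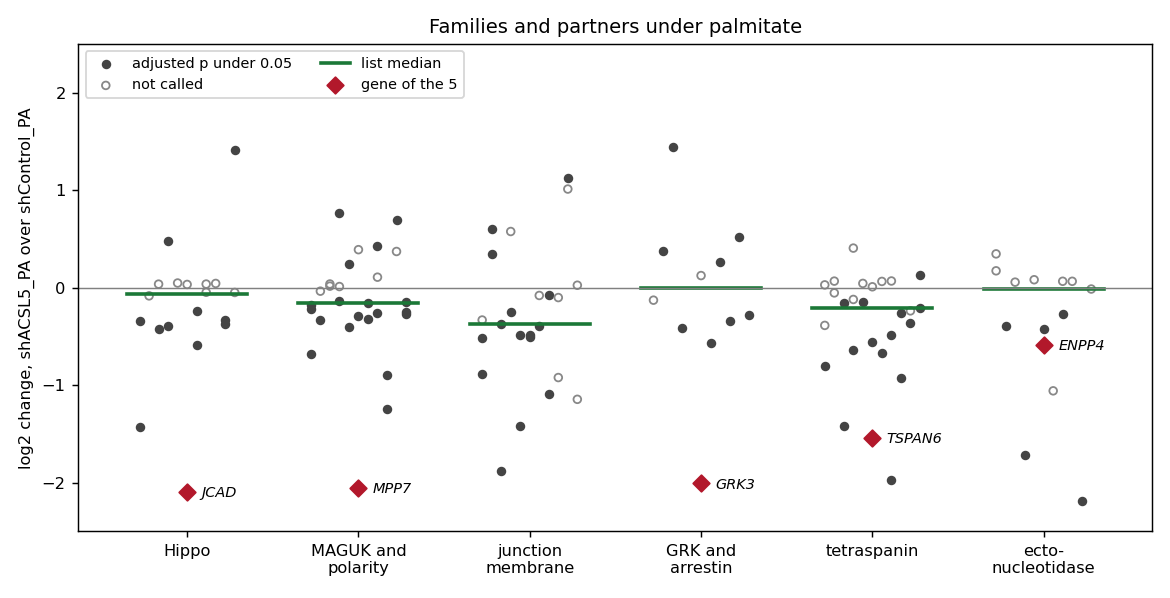
Log2 change of shACSL5_PA over shControl_PA (y axis) for the tested genes of 6 lists, with filled points for an adjusted p under 0.05, open points for genes not called, green lines at the list medians and red diamonds for the 5 genes, which are not in the lists. The medians lie between -0.37 (junction membrane proteins) and -0.00 (receptor kinases and arrestins), and JCAD, MPP7 and GRK3 lie below every other point of their lists.

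Genes within 1 Mb of each of the 5 were read for the same comparison. Near JCAD 1 of 6 tested neighbours was called lower, near MPP7 6 of 11, near GRK3 4 of 13 lower and 1 higher, near TSPAN6 4 of 17 lower and 6 higher, and near ENPP4 5 of 8 lower and 1 higher, beside 26.1% lower and 24.4% higher among all tested genes. No called neighbour of JCAD, MPP7 or GRK3 changed by 2-fold or more. RCAN2, an inhibitor of calcineurin 74.0 kb from ENPP4, averaged 2.17 ± 0.818 CPM in shACSL5_PA and 5.40 ± 1.19 CPM in shControl_PA (-1.31, SE 0.23, edgeR adjusted p = 5.83e-05). ADGRF1, an adhesion receptor 851 kb from ENPP4, rose by 2.59 (SE 0.79, edgeR adjusted p = 0.00847) on 34 counts in shACSL5_PA and 5 in shControl_PA, and without shACSL5_PA replicate 3 it stood at 1.75 with an edgeR adjusted p of 0.111. XKRX, 273 kb from TSPAN6, changed by -1.75 (SE 0.67, edgeR adjusted p = 0.0345) on 11 counts in shACSL5_PA and 35 in shControl_PA. That call was lost without shACSL5_PA replicate 2 or 3 (edgeR adjusted p = 0.149 and 0.0938) and without shControl_PA replicate 2 or 3 (edgeR adjusted p = 0.0787 and 0.135). The readthrough gene RPL36A-HNRNPH2, 751 kb from TSPAN6, stood at 2.55 (SE 0.69), a value that is uncertain because its reads overlap those of RPL36A and HNRNPH2. Without palmitate 2 of 6 were called lower near JCAD, 4 of 11 near MPP7 and 4 of 13 near GRK3. Near TSPAN6 it was 5 of 17 and near ENPP4 5 of 8. Called higher were 0, 1, 2, 5 and 2 in that order, beside 32.6% lower and 29.7% higher among all tested genes. RCAN2 then stood at -2.07 and ENPP5, 12.5 kb from ENPP4, at -2.99. ENPP5 had 6 counts in shACSL5 and 47 in shControl, and ENPP4 stood at -1.26.

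**Figure D5:**
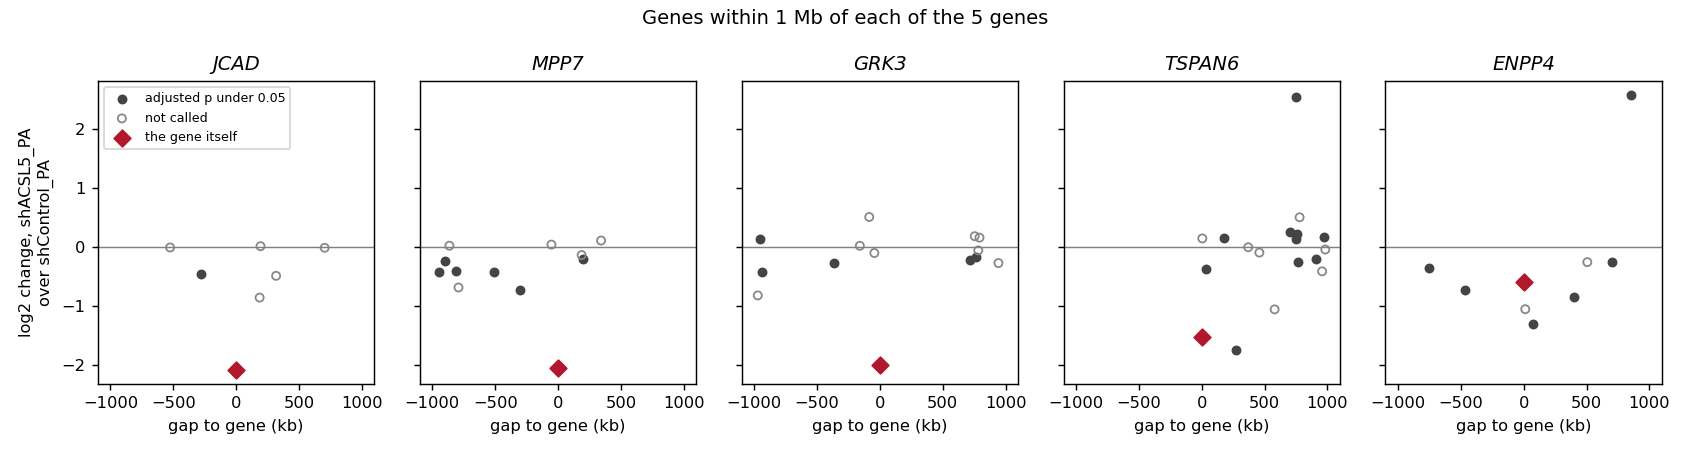
Log2 change of shACSL5_PA over shControl_PA (y axis) for tested genes within 1 Mb of each of the 5, against the gap to the gene in kb (x axis), with filled points for an adjusted p under 0.05 and red diamonds for the gene itself. JCAD, MPP7 and GRK3 lie at -2.09, -2.05 and -2.01, below all of their neighbours, while XKRX lies below TSPAN6, and RCAN2, ENPP5 (-1.06, not called), CYP39A1 (-0.86) and RUNX2 (-0.74) lie below ENPP4; CYP39A1 and RUNX2 are named after their values were seen.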

How the data were processed

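The deposited values are unnormalized read counts, whole numbers for each gene and library. Per the submitters' processing notes, the authors used HISAT2 2.1.0, fastp 0.22.0 and featureCounts, on GRCh38. Neither the featureCounts version, nor the annotation release, nor the strand setting is stated by the sources used here. Per the labels' protocols, polyA RNA was isolated with oligo(dT) beads.

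Groups and replicate numbers came from the sample titles. Genes were filtered with filterByExpr, counts were scaled with TMM factors, and edgeR 4.0.16 (R 4.3.3) fitted 1 quasi-likelihood model with a term per group to the 12 libraries (Benjamini-Hochberg adjustment over 14706 genes, common dispersion 0.00203). Calls were made at an adjusted p under 0.05. The standard error is the absolute log2 change divided by the square root of F, it is approximate, and the 95% interval is 1.96 SE either side. For the 5 genes, intervals in comparisons that share libraries with the selection take no account of it. The 5 genes and all gene lists were chosen with earlier results of these data known. The comparison that selected the 5 genes, the interaction that contains it, and palmitate within control or within knockdown cells, which share libraries with it, are given without a test for them. The interaction was tested for relatives and partners, although some were named by their change under palmitate, which it contains.

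Named relatives and partners were a set of paralogs and known partners, plus, per list, up to 4 called genes with the largest change under palmitate and a mean of at least 1 CPM; named neighbours were those called with at least 2-fold change. Likeness was the Pearson correlation of log2 CPM (prior count 2). Deviations of same-numbered replicates had correlations of -0.0424 to 0.0804 in 18 pairs, so no strong shift shared by number was seen. With 3 libraries a group this cannot settle whether the numbers pair samples, and the labels do not say. Current symbols matched 51928 identifiers of the table, and positions came from GENCODE 29. Promoter windows came from the RefSeq table. The model was tested on simulated counts for the knockdown under palmitate: of 50 genes changed by 2-fold 50 were recovered, and of 50 changed by 1.5-fold 41, in 14490 genes. For palmitate in knockdown cells 47 of 50 were recovered at 2-fold. The changed genes had an expected count over 50 per library, so the recovery does not cover genes with fewer counts. Far fewer genes were changed than the real comparison called. Alternatives with DESeq2 1.42.0, limma 3.58.1, other scalings and filters, a replicate block and each library left out were tried.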

Additional observations from a re-analysis of the deposited data

Results flagged for a closer look

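In 9 of the 41 tested relatives and partners that the naming rule picked, and in 30 of all 115 tested in the lists (26.1%), the palmitate response differed between knockdown and control cells, by the interaction term of the edgeR model (Benjamini-Hochberg over 14706 genes), as it did in 14.5% of all tested genes. Some of the 41 were named by their change in the knockdown under palmitate, which the interaction contains, so their p-values are descriptions. The lists were chosen with earlier results of these data known, and the shares of 26.1% and 14.5% were not tested against each other. Each value below is a log2 difference, knockdown minus control cells. Of the 30 called list genes 23 had a positive value and 7 a negative one. Among tetraspanin genes it was 1.09 for CD82 (SE 0.14, edgeR adjusted p = 1.6e-05), whose mean was 6.57 CPM in shACSL5_PA, 17.5 in shControl_PA, 5.71 in shACSL5 and 32.4 in shControl. TSPAN33 had a value of 0.97 (edgeR adjusted p = 0.0222), ADAM10 of 0.28 (edgeR adjusted p = 0.00377) and SDCBP of 0.14 (edgeR adjusted p = 0.0365). Of the ectoenzymes, ENPP1 had a value of 0.35 (edgeR adjusted p = 3.34e-04) and NT5E of -0.16 (edgeR adjusted p = 0.00228). The cadherin CDH11 had a value of -0.33 (edgeR adjusted p = 0.00132), with means of 67.5 CPM in shACSL5_PA, 143.6 in shControl_PA, 100.1 in shACSL5 and 168.5 in shControl. Its sign was the less common one among the 23 tested junction genes. Of these 9 were called (39.1%, beside 14.5% of all genes), 7 with a positive value and 2 with a negative one. The receptor kinases differed in sign, with GRK5 at 0.40 (edgeR adjusted p = 0.0127) and GRK2 at -0.24 (edgeR adjusted p = 0.0224). The calls of CD82, ADAM10, ENPP1, NT5E, CDH11 and GRK5 held in every alternative run. That of TSPAN33 was lost without shACSL5 replicate 1 or 3 or shControl replicate 1 (edgeR adjusted p = 0.0597, 0.0543 and 0.0541). GRK2 lost its call in 6 of the single-library omissions, where the edgeR adjusted p reached 0.0782, and SDCBP lost its call in 8 of them, where it reached 0.101, and also with DESeq2 size factors or without the low-count filter. What lies behind these differences was not tested.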

How the results depend on the processing

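Across 20 alternatives (19 for the average palmitate effect, which already uses all groups), 12 of which leave out 1 library each, every tested call of the 5 genes held: 5 in the knockdown under palmitate and 3 for the average palmitate effect. None of the 100 alternative values for the knockdown under palmitate changed sign. The same held for the 100 values without palmitate, but there the selection for large falls fixed the sign, so they add no support. For the average palmitate effect 7 of 95 values changed sign, all of MPP7. Of the values given without a test, 4 of 100 changed sign for palmitate in control cells, 7 of 100 in knockdown cells and 1 of 95 for the interaction, where GRK3 had 0.09 and, without shACSL5 replicate 1, -0.00909. MPP7 for average palmitate was -0.0271 with library sizes alone and ran from -0.0613 to 0.0683 over the omissions. TSPAN6 in control cells was -0.0434 with library sizes alone and -0.0166 to 0.0442 over the omissions. JCAD in knockdown cells was -0.00587 with library sizes alone and -0.0846 to 0.0983 over the omissions. GRK3 in knockdown cells was 5.719e-04 without the low-count filter and -0.108 to 0.0707 over the omissions. The uncalled interaction of ACSL5 ran from -0.0811 to 0.119 over the omissions. In the knockdown under palmitate, ENPP2 was 0.236 with limma-voom, 0.0163 with the replicate block and -0.436 to 0.603 over the omissions, and LATS1 ran from -0.0942 to 0.0105 over the omissions. For each of these the cause was not tested. Spearman's rho in place of Pearson's r kept 1 of the 15 most similar genes, and a window of 500 kb in place of 1 Mb held 9 neighbours called lower in place of 20, a smaller window with fewer genes. The replicate block gave 7489 called genes for the knockdown under palmitate against 7432 without it. It changed no call of the 5 genes and made ARRB1 pass the threshold (edgeR adjusted p = 0.0493). Counts of 36 to 78 per knockdown library limit JCAD, MPP7 and GRK3, whose 95% intervals for palmitate in knockdown cells reach up to 0.55 on the log2 scale.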
